A study of Mus musculus with 36 samples.

Results

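Ribosome-protected fragments (RPFs) from the granule pellet of wild-type (WT) mouse brain were set against the RNA of the same tissue, gene by gene, in 6 of the 36 libraries of the series: 3 RPF libraries of the pellet and 3 whole-brain RNA-seq libraries, all WT and all labelled as made with the M protocol. This is the standard nuclease preparation, in which brains were homogenized with 10 mM MgCl2 and RNase I was scaled to the RNA content and used at room temperature. A preparation pooled 10 brains of C57BL/6 mice on postnatal day 5, so that cell types, regions and both sexes were mixed. The pellet is the material that sedimented through a sucrose gradient, and fragments of about the size of a ribosome footprint were cut from a gel. The 3 pellet libraries received different linkers and were then pooled for reverse transcription and amplification, whereas RNA-seq libraries were made from whole-brain RNA, so the kind of molecule and the way its library was made cannot be told apart in this comparison. Libraries of FMR1 KO mice and of a low nuclease preparation with 2.5 mM MgCl2 served for comparison only.

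An mRNA is covered by ribosomes over its coding sequence while it is translated, and the fragment that a ribosome shields from nuclease marks where it sat. The number of such fragments relative to the mRNA level, called ribosome occupancy here, rises with the number of ribosomes on each mRNA and with the share of the mRNA that reaches the fraction sequenced. In developing neurons many ribosomes are held in RNA granules, dense clusters that carry mRNAs into dendrites and axons with translation paused, and these clusters are what the pellet was prepared to collect.

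The total count was 40174168, 21710393 and 21930736 in pellet libraries 1, 2 and 3, and 112249206, 138295078 and 122780188 in RNA-seq libraries 1, 2 and 3. A single gene, Cdk8, held 43.7% to 47.0% of the pellet counts and at most 0.00903% of the RNA-seq counts, and it was left out before any scaling. Without it and without non-coding genes, 11914381 to 21259777 counts remained in a pellet library and 112124104 to 138152083 in an RNA-seq library. The 10 most counted genes then held at least 23.3% of each pellet library and 5.11% to 7.17% of the RNA-seq libraries. Cmss1, which was kept, was the most counted gene of pellet libraries 1 and 2, with 6.28% and 6.63% of the remaining counts. The levels of pellet libraries correlated across genes at r = 0.958 to 0.967, those of RNA-seq libraries at 0.983 to 0.991 (Pearson, on the log2 scale of the levels defined next). Levels are given below as CPM, the counts for each 1000000 of a library size scaled by TMM, which sets the bulk of genes level between libraries. Differences are log2 of pellet over RNA-seq with the standard error (SE), tested with edgeR's quasi-likelihood test and Benjamini-Hochberg adjustment (adjusted p) over all genes.

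Of 16180 protein-coding genes tested, 5031 (31.1%) had higher and 5540 (34.2%) had lower occupancy at an adjusted p under 0.05, and 3140 (19.4%) and 4075 (25.2%) of them differed by at least 2-fold. In all 10571 genes (65.3%) were called in either direction. The pellet and RNA-seq libraries did not overlap for 11518 genes (71.2%), lying all above for 5308 (32.8%) and all below for 6210 (38.4%). The median over all genes was -0.10 on the log2 scale, with the middle of the distribution from -1.13 to 0.82. Which side of 0 a gene falls on depends on the scaling. By library size alone the median of all genes moved to -1.25, and 1421 genes (8.78%) were called higher and 10938 (67.6%) lower. Group counts by library size alone are to be read against these shares. Gene groups are given by their median on this scale, to be read against the -0.10 of all genes, and where stated as that median minus the median of all genes, while "higher" and "lower" for a single gene mean relative to the bulk of genes. The order of mRNAs by RNA level was largely kept in the pellet, with a Spearman's rho of 0.856 across the 16180 genes, which are not independent replicates.

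**Figure D1:**
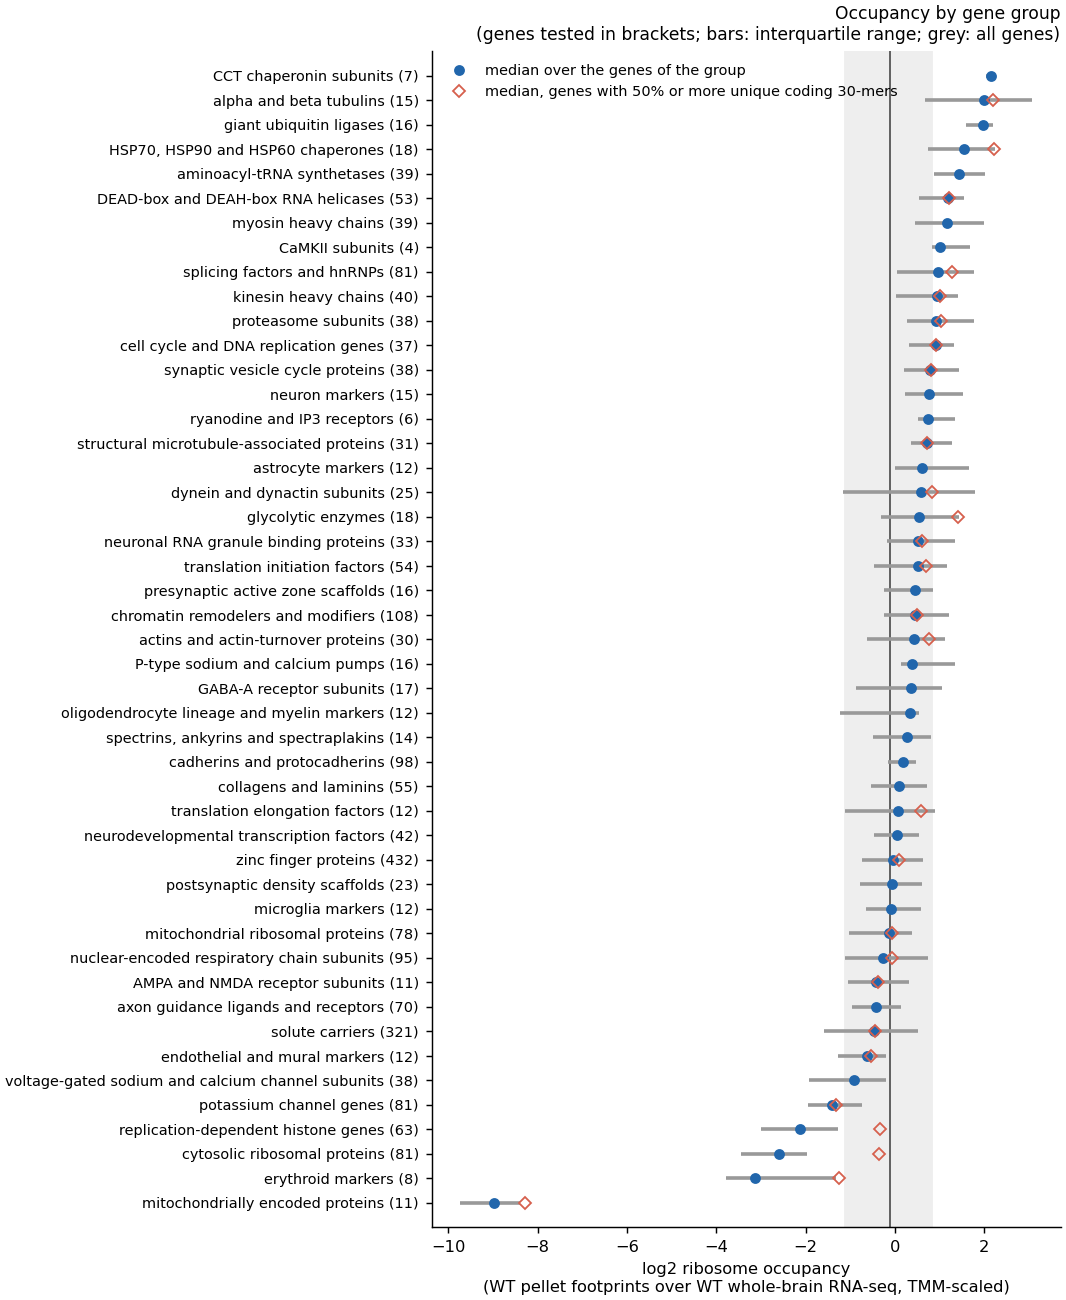
Median log2 ribosome occupancy of each gene group (blue points, x axis, no unit beyond log2), with bars for the interquartile range over its genes, open diamonds for the median over genes with a largely unique coding sequence, and a grey line and band for all genes tested. Chaperonin subunits, tubulins and giant ubiquitin ligases lie at the top near 2, potassium channels at -1.41 and mitochondrially encoded genes at -8.98 at the bottom, and the diamonds of ribosomal proteins and histones sit well to the right of their points.

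The deposited peaks, positions where RPF coverage reaches a local maximum, show where on these mRNAs the pellet ribosomes lay. Peaks found within 6 nt of each other in all 3 pellet libraries, called shared peaks here, numbered 1921, of which 1917 fell in 1139 of the genes tested (7.04%). Of 1642 that could be placed on an annotated transcript, 1593 were in coding sequence, 35 in a 5′ UTR and 14 in a 3′ UTR. Along the coding sequence they became more frequent towards the end, with 264, 265, 316, 350 and 398 peaks in 5 successive parts of equal length. The windows printed next are the highest shared peaks of 8 mRNAs from groups described in the following paragraphs, each 41 bases of transcript on the GRCm38 build with the codon under the maximum in capitals. They were chosen to span the cytoskeleton, RNA-binding, tRNA charging, motor, chromatin and mitochondrial carrier groups, and each window lies within 1 exon and matches a single place in the genome.
Tubb2b: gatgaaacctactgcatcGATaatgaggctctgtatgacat
Actb: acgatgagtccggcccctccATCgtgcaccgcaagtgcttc
Hnrnpa0: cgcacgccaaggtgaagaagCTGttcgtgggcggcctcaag
Aars: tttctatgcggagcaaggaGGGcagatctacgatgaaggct
Hdac2: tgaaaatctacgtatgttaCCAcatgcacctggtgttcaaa
Kif1b: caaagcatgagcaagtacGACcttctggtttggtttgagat
Myh9: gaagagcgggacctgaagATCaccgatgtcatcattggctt
Slc25a4: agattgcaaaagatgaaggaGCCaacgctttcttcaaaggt

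The Tubb2b window (chr13:34128180-34128220, minus strand) is in exon 4 of 4 with its maximum in codon 203 of 446, and the peak heights were 4268, 2436 and 2102 in pellet libraries 1, 2 and 3. The Actb window (chr5:142903801-142903841, minus strand) is in the last of 6 exons at codon 369 of 376, with heights of 3434, 2002 and 1560. These peaks of cytoskeletal mRNAs were the highest of the 8 shown. Hnrnpa0, an hnRNP with a single exon, had its maximum at codon 100 of 306 (chr13:58127996-58128036, minus strand) with heights of 265, 209 and 113. In Aars, alanyl-tRNA synthetase, it was codon 540 of 969 in exon 12 of 21 (chr8:111047037-111047077, plus strand), with heights of 178, 87 and 91. In Hdac2, a histone deacetylase, it was codon 375 of 489 in exon 11 of 14 (chr10:36997979-36998019, plus strand), with heights of 166, 87 and 75. Peak heights are not scaled between libraries, and library 1, the most deeply sequenced, was the highest for each of these mRNAs. The lowest of the windows were in motor proteins: Kif1b, a kinesin, at codon 1251 of 1817 in exon 35 of 49 (chr4:149204210-149204250, minus strand) with heights of 72, 36 and 40, and Myh9, a non-muscle myosin, at codon 779 of 1961 in exon 19 of 41 (chr15:77777801-77777841, minus strand) with heights of 20, 14 and 19. Slc25a4, the ADP/ATP carrier of the inner mitochondrial membrane, had its maximum at codon 267 of 299 in exon 4 of 4 (chr8:46207541-46207581, minus strand), with heights of 731, 461 and 430.

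Tubulin mRNAs stood high in the pellet. Of the 15 alpha and beta tubulins tested, 12 were higher and 2 lower, against 31.1% and 34.2% of all genes, and their median was 1.99. Their summed level was 23365, 21875 and 20763 CPM in the pellet libraries and 8025, 10927 and 9545 CPM in the RNA-seq libraries, and the groups did not overlap. By library size alone 9 were higher and 4 lower. Among genes with 10 CPM or more of RNA, the tubulin median relative to all genes came down to 1.16, its lowest over the settings tried. Chaperonin subunits were at 2.15 and giant ubiquitin ligases at 1.99 in that setting, so tubulins did not lead there. Tubb5, a beta tubulin that dividing cells and young neurons use, was the most abundant tubulin in the pellet, with 9519, 8764 and 8327 CPM against 1675, 2210 and 1930 CPM of RNA. Every pellet library was far above every RNA-seq library, and the difference was 2.19 (SE 0.18, adjusted p = 3.3e-05). Tubb3, the neuron-specific beta tubulin, had 4969, 4517 and 4222 CPM against 1127, 1798 and 1382 CPM (difference 1.67, SE 0.21, adjusted p = 0.00027). Tubb2b had 2521, 2407 and 2214 CPM against 1162, 1601 and 1302 CPM, a smaller difference of 0.81 (SE 0.17, adjusted p = 0.0037). Of its coding sequence only 23.5% of 30-base stretches occur once in the genome, and it carried 5 shared peaks. Tuba1a, the main alpha tubulin of young neurons, went the other way, with 1913, 1975 and 1611 CPM against 2681, 3258 and 3043 CPM (-0.71, SE 0.16, adjusted p = 0.0055). Tuba1b, the ubiquitous alpha tubulin, was the lowest of the family at -1.81, with at most 111 CPM in the pellet and 326 to 398 CPM of RNA. Both lower tubulins have almost no unique coding sequence, and the 7 tubulins with at least 50% unique sequence were all higher, with a median of 2.19. The highest difference, 9.18, belonged to Tuba3a, a testis alpha tubulin with at least 6.06 CPM in each pellet library and counts in only 1 RNA-seq library (0.0396 CPM).

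The proteins that bind microtubules were also mostly higher (23 of 31, with 3 lower, median 0.71). By library size alone 4 were higher and 16 lower, against 8.78% and 67.6% of all genes. Map1b, the large microtubule-associated protein of growing axons, was the most abundant, with 15185, 12838 and 16602 CPM in the pellet against 2512, 3264 and 2931 CPM of RNA. The groups were far apart, with a difference of 2.36 (SE 0.19, adjusted p = 3.7e-05), yet Map1b carried no peak in any of these libraries. Map2 of dendrites and Mapt (tau) of axons were higher by 1.48 and 1.03. Ckap5, a microtubule polymerase, was higher by 2.7. Camsap3, which caps microtubule minus ends, had the highest difference of the group (5.35) with 1297, 1253 and 6567 CPM against 62.4 to 86.1 CPM, so library 3 stood far above the others, and without it the difference was 4.10. The lowest was Map1lc3b, an autophagosome protein, at -4.19 (-4.84 without library 1), with 1% of its coding sequence unique.

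In the dynein complex the heavy chain stood high and the light chains named here stood low. Of 25 dynein and dynactin genes, 14 were higher and 8 lower (median 0.58; by library size alone 8 and 14). The heavy chain Dync1h1, which holds the motor domain, had 1942, 1396 and 2320 CPM against 223, 267 and 243 CPM (2.95, SE 0.22, adjusted p = 2.5e-05). The intermediate chain Dync1i2 was higher by 2.7 and the dynactin subunit Dctn1 by 1.87. The light chains Dynll1 and Dynll2 were lower by -1.92 and -1.16, and Dynll1 had 53.2, 67.6 and 40.9 CPM in the pellet against 237, 197 and 179 CPM of RNA. Pellet and RNA-seq libraries did not overlap for the heavy chain or for this light chain. The lowest member, Dynlt1c, another light chain, had a single pellet count, in library 1, against 1042 of RNA, which makes it 56.9-fold lower with a 95% exact interval of 10.2 to 2250 that covers counting error only.

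Kinesin heavy chains, which walk to microtubule plus ends, were higher in 24 and lower in 7 of 40 (median 0.94; by library size alone 6 higher and 16 lower, median -0.21). Kif5a, a neuronal motor of fast axonal transport, had 1879, 1668 and 2132 CPM against 382, 502 and 442 CPM, a difference of 2.1, and Kif1a, Kif3a and Kif1b were higher by 1.59, 2.59 and 1.67. Kif13a had the highest difference (9.52, SE 1.58) with 3897, 5117 and 95377 CPM against 41.7 to 50.5 CPM of RNA. Its value rests on library 3, where it was the most counted gene with 5.95% of the counts, and without that library it was 6.58 (adjusted p = 6.6e-06). Kifc2 was the lowest at -3.31.

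Myosin heavy chains were higher in 26 and lower in 3 of 39, with a median of 1.17, and by library size alone 14 were called in each direction. Myh10, the non-muscle myosin IIB of neurons, had 1195, 1058 and 1384 CPM against 173, 248 and 232 CPM (2.48, SE 0.19, adjusted p = 3e-05). Myo5a, which carries cargo into dendritic spines, was higher by 1.64, and Myh9 by 1.95. The extremes were weakly expressed, with Myo3b at 4.74 (44.5, 200 and 6.06 CPM in the pellet; 3.03 without library 2) and Myo1h at -5.57. Actins and the proteins that turn actin filaments over were more divided, with 16 higher and 10 lower of 30 (median 0.41; by library size alone 5 and 18). Actb, beta-actin, had 7211, 7754 and 6079 CPM against 4215, 4439 and 3720 CPM (0.77, SE 0.17, adjusted p = 0.0052). The lowest was Tmsb10, a short actin-sequestering peptide, with 30.7, 35.7 and 22.5 CPM against 723, 507 and 374 CPM (-4.17), and none of its coding sequence is unique.

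Spectrins, ankyrins and spectraplakins, the long proteins that join membranes and filaments, had shares called that were near those of all genes, with 5 higher (35.7%) and 4 lower (28.6%) of 14 against 31.1% and 34.2%, and a median of 0.27. By library size alone 2 were higher and 10 lower. Plec, plectin, was the most abundant and the highest, with 8329, 10744 and 9448 CPM against 39.2, 44.0 and 53.0 CPM (7.71, SE 0.25, adjusted p = 3.5e-06), and it carried no deposited peak. Sptan1, alpha-II spectrin, was higher by 1.80, whereas Sptb was the lowest at -0.97 and the spectraplakins Dst and Macf1 stood at -0.84 and -0.39, and relative to all genes both changed sign when RNA counts were scaled to their coding share (0.0652 and 0.50). The call of Macf1 was lost without library 1 (-0.42, adjusted p = 0.075) or library 2 (-0.39, adjusted p = 0.085), and without RNA-seq library 1 (-0.26, adjusted p = 0.083) or 3 (-0.43, adjusted p = 0.055). That of Dst was lost without RNA-seq library 1 (-0.76, adjusted p = 0.055).

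The folding machinery for the cytoskeleton was the most even group. All 7 subunits of the CCT chaperonin that were tested were higher, between 1.94 and 2.68 (median 2.15), and all 7 also by library size alone. CCT folds newly made tubulin and actin. Summed over the subunits, the level was 4547, 4328 and 4505 CPM in the pellet against 962, 1012 and 989 CPM of RNA. Cct8 was both the most abundant and the highest, with 779, 715 and 817 CPM against 112, 124 and 125 CPM (2.68, SE 0.13, adjusted p = 6.6e-06). Cct5 was the lowest with 649, 611 and 627 CPM against 160, 172 and 159 CPM (1.94). None of the 7 had a shared peak, against 7.04% of all genes tested.

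Of 18 chaperones of the HSP70, HSP90 and HSP60 families, 14 were higher and 1 lower (median 1.55; by library size alone 9 and 4). Hsp90ab1, the constitutive cytosolic HSP90, had 4755, 4371 and 4943 CPM against 916, 1079 and 1011 CPM (2.23, SE 0.15, adjusted p = 1.8e-05). Hsph1, a nucleotide exchange factor of HSP70, was the highest at 2.94, with 702, 603 and 716 CPM against 69.4 to 101 CPM. Hspe1, the small co-chaperonin of mitochondria, was the one that fell, by 0.88. The chaperones of the endoplasmic reticulum, Hsp90b1 and Hspa5, were higher by 2.68 and 2.63 with a different pattern over libraries: Hsp90b1 had 54.3, 49.3 and 130 CPM and Hspa5 had 50.4, 43.0 and 126 CPM in pellet libraries 1, 2 and 3, against 10.6 to 13.2 CPM of RNA for both. Library 3 was more than 2 times the others for these mRNAs of the secretory pathway, and it was not for the cytosolic chaperones. Without library 3 the differences were 2.1 for Hsp90b1 and 1.98 for Hspa5, both still called.

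The degradation machinery was higher as well. All 16 giant ubiquitin ligases were called higher, with a median of 1.98, and by library size alone 12 were higher and 2 lower. Herc2 had 865, 706 and 1010 CPM against 172, 206 and 209 CPM (2.14, SE 0.18, adjusted p = 3.9e-05). Ubr4, which recognises destabilising N-termini, was the most abundant and the highest, with 5454, 1659 and 1110 CPM against 198, 253 and 239 CPM (3.57, SE 0.60, adjusted p = 0.0013), and library 1 stood well above the others. Without library 1 the difference of Ubr4 was 2.55 (adjusted p = 0.00011). Hecw2 was the lowest, with 76.4 to 111 CPM against 61.2 to 71.5 CPM (0.45, adjusted p = 0.043), and it did not pass without library 1 (0.48, adjusted p = 0.054) or library 3 (0.27, adjusted p = 0.084), nor without RNA-seq library 2 or 3 (0.43 and 0.42, adjusted p = 0.11 for both). Of 38 proteasome subunits, 27 were higher and 4 lower (median 0.91; by library size alone 12 and 13). Psmd1, the scaffold of the regulatory particle, was the highest with 514, 436 and 543 CPM against 73.9, 90.0 and 87.1 CPM (2.57, SE 0.15, adjusted p = 1e-05). The 4 that fell were Psma3, Psma5, Psmb3 and Psmb5, subunits of the core particle, and each of them has under 30% unique coding sequence. Psma5, at -0.40, did not pass without library 1 (-0.39, adjusted p = 0.089) or without RNA-seq library 2 (-0.40, adjusted p = 0.056) or 3 (-0.36, adjusted p = 0.072), and Psmb5 lay above all genes (0.28) when RNA counts were scaled to their coding share.

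**Figure D2:**
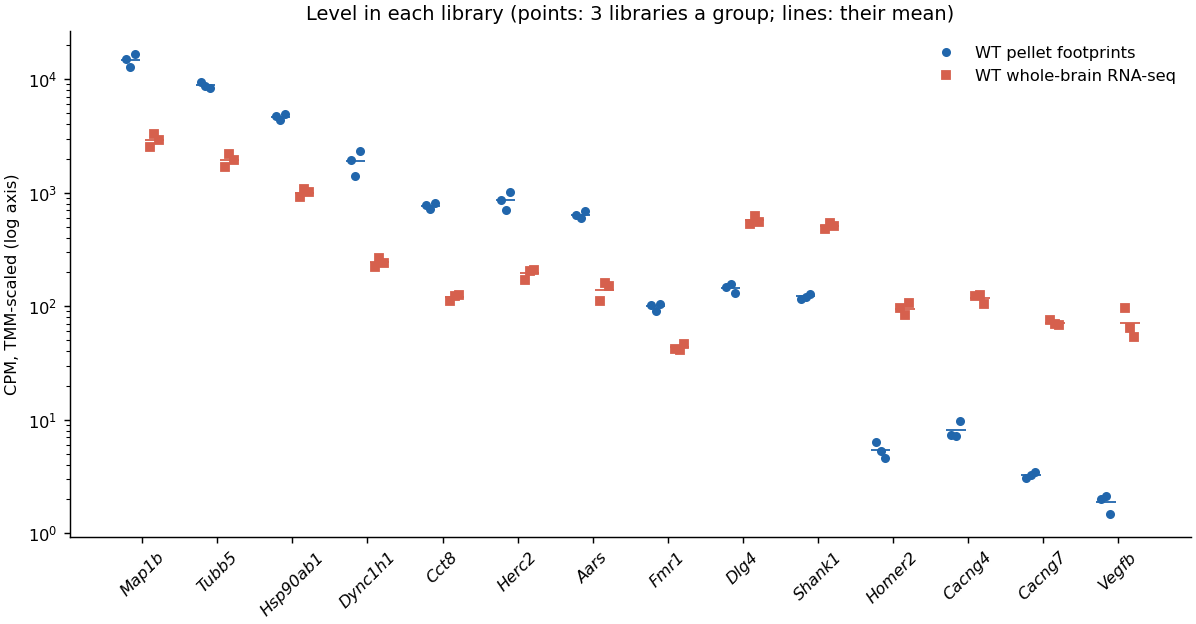
Level of 14 mRNAs in each library, in TMM-scaled CPM on a log axis, with blue circles for the 3 pellet RPF libraries, red squares for the 3 whole-brain RNA-seq libraries and a line for each mean. The circles lie above the squares from Map1b to Fmr1 and below them from Dlg4 to Vegfb, and in none of these mRNAs do the groups overlap.

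Among mRNAs of the translation apparatus the direction depended on the protein. Aminoacyl-tRNA synthetases, which charge tRNAs, were higher in 33 and lower in 1 of 39 (median 1.44; by library size alone 16 and 10). Aars had 636, 595 and 685 CPM against 111, 159 and 150 CPM (2.19, SE 0.17, adjusted p = 3.1e-05). Lars2, the mitochondrial leucyl-tRNA synthetase, had the highest difference, with 768, 522 and 459 CPM against 11.4, 9.18 and 23.6 CPM (5.31, SE 0.44, adjusted p = 3.9e-05). The single synthetase called lower was the mitochondrial Fars2, with 19.3, 22.3 and 20.3 CPM against 36.6, 27.1 and 30.0 CPM (-0.60, adjusted p = 0.0074), and relative to all genes its sign turned when RNA counts were scaled to their coding share (0.0820).

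Initiation factors were divided by subunit, with 27 higher and 16 lower of 54 (median 0.52; by library size alone 9 and 31). Eif3a, the largest subunit of the factor that loads the small ribosomal subunit, had 797, 655 and 899 CPM against 70.8, 86.9 and 88.1 CPM (3.26, SE 0.18, adjusted p = 8.9e-06). The cap-binding scaffold Eif4g1 was higher by 1.87, while its partner Eif4e, which binds the cap itself, was lower at -2.24, with 16% of its coding sequence unique. Eif4g2, a scaffold that works without Eif4e, was also lower, with 297, 351 and 292 CPM against 1082, 1009 and 1104 CPM (-1.77). Eif1, which selects the start codon, was the lowest at -2.74 with 2% unique coding sequence. Of 12 elongation factors, 6 were higher and 6 lower (by library size alone 2 and 8). Eef2, which moves the ribosome along, had 2492, 2409 and 2513 CPM against 1918, 1621 and 1439 CPM (0.57, adjusted p = 0.014), which did not pass without RNA-seq library 3 (0.49, adjusted p = 0.065). Gfm1, its mitochondrial counterpart, was the highest at 1.70, and Eif5a2 the lowest at -2.07. Eef1a2, the form of the tRNA-delivering factor that mature neurons use, was higher by 1.69, and Eef1a1, the form of other cells, lower at -1.69. Only 9% of the coding sequence of Eef1a1 is unique, and it carried 7 shared peaks.

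Ribosomal protein mRNAs had low occupancy: 77 of 81 fell and none rose, with a median of -2.59. Of these 81 genes, 77 have under 50% unique coding sequence, since the genome holds many processed copies of them, and how the authors' counting treated reads with several matches is not given in the sources used here. The 4 with largely unique sequence had a median of -0.37, and 1 of them was called lower. Footprints on these mRNAs were not missing from the peak files, where 40 of the 81 genes had 56 shared peaks. Rpl39 was the lowest at -7.56. Rpl22 had the highest difference (3.45, adjusted p = 0.056) from 1894, 1665 and 9.70 CPM against 95.8 to 135 CPM, with library 3 far below the others, and it was 4.03 (adjusted p = 1.4e-05) without that library. The nuclear-encoded proteins of mitochondrial ribosomes had a median of -0.14, with 21 higher and 31 lower of 78 (by library size alone 3 and 66), from Mrps22 at 1.95 to Mrps36 at -5.48 (-6.19 without library 1).

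Genes whose coding sequence is largely not unique had low occupancy. Genes with no unique 30-base stretch (110 genes) had a median of -4.01, those up to 25% -2.24 (406 genes), up to 50% -1.18 (437 genes), up to 75% -0.41 (586 genes), up to 95% 0.09 (1030 genes) and above 95% -0.01 (13409 genes). Spearman's rho between uniqueness and occupancy was 0.10 across all genes with a value and -0.028 among genes with at least 50% unique sequence, so the trend lay in the least unique genes. The part of read mapping in it was not tested. Of the 358 genes below -4, 146 (40.8%) had under 50% unique sequence, against 949 genes (5.94%) of all those with a value.

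**Figure D3:**
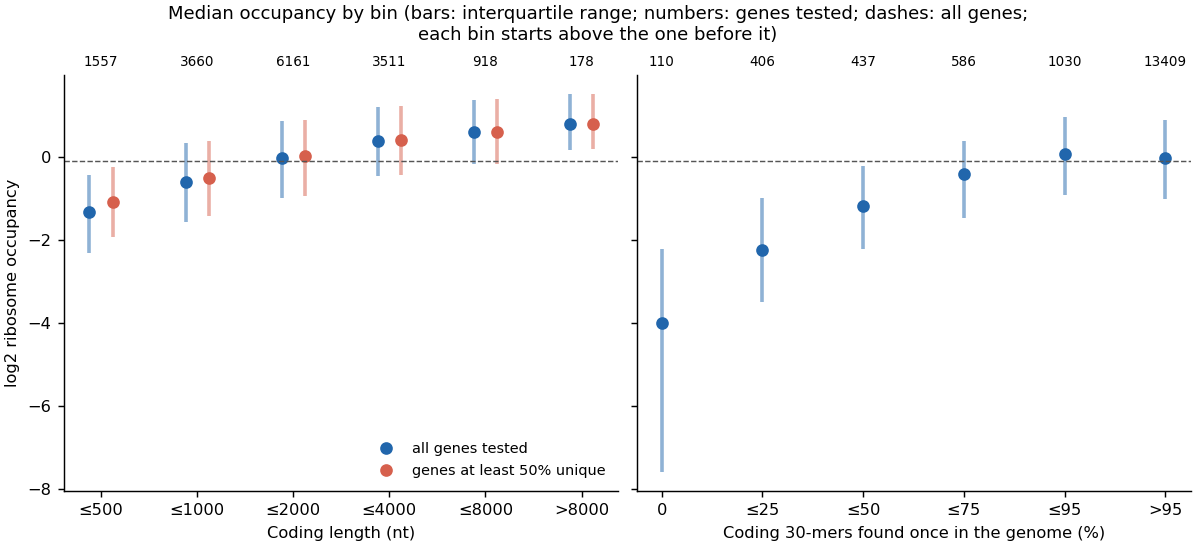
Median log2 ribosome occupancy in bins of coding length in nt (left, for all genes and for genes with at least 50% unique coding sequence) and of the share of coding 30-mers found once in the genome (right), with bars for the interquartile range and the number of genes above each bin. The medians rise from -1.32 in the shortest to 0.81 in the longest coding sequences, and from -4.01 to about 0 with uniqueness.

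Occupancy rose with coding length: the median was -1.32 for coding sequences up to 500 nt (1557 genes), -0.59 up to 1000 nt (3660), -0.01 up to 2000 nt (6161), 0.40 up to 4000 nt (3511), 0.60 up to 8000 nt (918) and 0.81 beyond (178). The share called higher rose from 8.09% to 58.4% over these bins and the share called lower dropped from 64.7% to 8.43%. RPFs come from the coding sequence and RNA-seq reads from the whole transcript, and the median also rose with the coding share of the transcript, from -1.32 where at most 20% is coding to 0.38 above 80%. The part of the coding share in the length trend was not tested. Across genes, Spearman's rho with occupancy was 0.368 for coding length, 0.270 for coding share and 0.048 for the RNA level (15991 genes, or 16180 for the RNA level). It was -0.222 for the share of codons that end in G or C, whose lowest bin had a median of 0.44 and whose highest had -0.63. Genes without an intron had a median of -0.75 (461 genes). Each gene with largely unique sequence was also set against the median of its length bin. There tubulins and CCT led, with medians of 2.17 and 2.13. HSP70, HSP90 and HSP60 chaperones followed at 1.82, splicing factors at 1.41, proteasome subunits at 1.35, tRNA synthetases at 1.34 and giant ligases at 1.25. The giant ligases thus fell behind the splicing factors, proteasome subunits and tRNA synthetases. Myosins and kinesins came down to 0.56 and 0.46, chromatin remodelers to 0.06, active zone scaffolds to -0.04, ryanodine and IP3 receptors to -0.07 and spectrins to -0.43. Groups of short proteins came up instead. Nuclear-encoded respiratory chain subunits were at 0.71 (59 of 77 above their bin) and mitochondrial ribosomal proteins at 0.57 (50 of 67). Histones were at 0.53 (8 of 10), and the 4 largely unique cytosolic ribosomal proteins at -0.13.

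RNA-binding and RNA-processing proteins were among the higher groups. Of 81 splicing factors and hnRNPs, 56 were higher and 15 lower (median 0.97; by library size alone 23 and 33, median -0.17). Hnrnpu, which packages nuclear RNA, had 1773, 1724 and 1798 CPM against 206, 233 and 254 CPM (2.93, SE 0.15, adjusted p = 6.9e-06). Hnrnpa0 was higher by 0.60, but did not pass without pellet library 1 (0.56, adjusted p = 0.054) or library 2 (0.42, adjusted p = 0.08). Snrpa of the U1 particle had the highest difference (4.14) with 1816, 1056 and 37.0 CPM against 51.2 to 61.5 CPM, so library 3 lay below the RNA-seq libraries, and without library 1 it was 3.31. It did not pass without RNA-seq library 1 (4.1, adjusted p = 0.054). Snrpg, a short Sm protein with 17% unique sequence, was the lowest at -4.22. DEAD-box and DEAH-box helicases, which unwind RNA, were higher in 41 and lower in 2 of 53 (median 1.18; by library size alone 13 and 16). Dhx9 was the most abundant and the highest, with 1039, 893 and 1046 CPM against 79.3, 97.2 and 105 CPM (3.40, SE 0.17, adjusted p = 6.7e-06). Ddx19b, which exports mRNA, was the lowest at -1.15. Ddx6, a helicase of translational repression, stood at -0.03 (adjusted p = 0.85), and relative to all genes at -1.11 with RNA counts scaled to their coding share.

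Among the mRNAs of proteins found in neuronal RNA granules, 17 of 33 were higher and 4 lower (median 0.52; by library size alone 6 and 18), and their median relative to all genes, 0.62, dropped to 0.34 without pellet library 1 and to 0.22 among genes with 20 or more counts in each pellet library. Fmr1, which encodes FMRP, had 103, 91.6 and 104 CPM against 42.0, 41.5 and 46.9 CPM. The groups were well apart, with a difference of 1.20 (SE 0.11, adjusted p = 6.6e-05), and Fmr1 carried no peak. Its paralogs Fxr1 and Fxr2 were higher by 1.44 and 0.95. Hnrnpa2b1, which binds transport signals in 3′ UTRs, was higher by 2.46, and Caprin1, G3bp2 and Upf1 by 1.92, 2.16 and 1.82. G3bp1 did not follow G3bp2 (-0.19, adjusted p = 0.19), and Stau2 did not pass the test (0.25, adjusted p = 0.11) except without RNA-seq library 1 (0.37, adjusted p = 0.024), while Stau1 did (1.15). Ybx1, a packaging protein of mRNA, was the lowest, with 107, 126 and 98.0 CPM against 1986, 895 and 576 CPM (-3.38, and -2.73 without RNA-seq library 1; 32% unique). Igf2bp1, the zipcode-binding protein, had the highest difference, 8.33, on library 1 alone, with 1213, 1.45 and 1.48 CPM against 1.03 to 1.57 CPM. Without library 1 it was 0.18 (adjusted p = 0.69), and it did not pass with any 1 of the RNA-seq libraries left out (8.22 to 8.54, adjusted p = 0.075 to 0.088).

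Synaptic mRNAs included members in both directions. Of 38 genes of the synaptic vesicle cycle, 23 were higher and 7 lower (median 0.78; by library size alone 8 and 15). The coat protein Cltc, clathrin heavy chain, had 3203, 2715 and 3549 CPM against 272, 363 and 397 CPM (3.20, SE 0.21, adjusted p = 1.5e-05). Ap2a1, of the clathrin adaptor AP-2, was the most abundant and the highest, with 11883, 2965 and 4889 CPM against 178 to 259 CPM (4.88, and 4.08 without library 1). The ATPase Nsf, which disassembles SNARE complexes, was higher by 1.95 and the vesicle protein Syn1 by 1.46. The SNAREs themselves diverged, with Snap25 at 577, 612 and 543 CPM against 305, 371 and 352 CPM (0.75) and Vamp2 at 321, 378 and 259 CPM against 756, 767 and 728 CPM (-1.23). The lowest was Cplx2, a complexin that clamps the SNAREs, with 161, 187 and 153 CPM against 536, 672 and 569 CPM (-1.83).

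Scaffolds of the presynaptic active zone were higher in 8 and lower in 4 of 16 (median 0.44; by library size alone 1 and 11). Unc13a, which primes vesicles, was the most abundant and the highest, with 865, 709 and 1298 CPM against 121, 181 and 172 CPM (2.60, SE 0.27, adjusted p = 0.00012). Rims3 was the lowest, with 25.4, 30.5 and 21.4 CPM against 122, 119 and 107 CPM (-2.17), and the large scaffold Bsn was lower at -0.67, a call lost without RNA-seq library 2 (-0.58, adjusted p = 0.067) or 3 (-0.64, adjusted p = 0.052).

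Of 23 postsynaptic density scaffolds 6 were higher (26.1%) and 10 lower (43.5%), not far from the 31.1% and 34.2% of all genes, with a median of -0.06. Scaling by library size alone gave 2 higher and 18 lower. Gphn, gephyrin of inhibitory synapses, had 300, 250 and 288 CPM against 60.5, 64.5 and 68.8 CPM (2.11, SE 0.12, adjusted p = 1.1e-05). Iqsec1 had the highest difference of the group, 2.13, which rests on library 1 (2404, 151 and 203 CPM against 191 to 230 CPM) and did not pass the test (adjusted p = 0.094). Without library 1 it was -0.30 (adjusted p = 0.19), and it passed without library 2 (2.63, adjusted p = 0.027) or library 3 (2.61, adjusted p = 0.035). Dlg4, which encodes PSD-95, was lower, with 148, 156 and 131 CPM against 533, 629 and 553 CPM (-1.98, SE 0.14, adjusted p = 1.8e-05). Its relatives Dlg1 and Dlg3 were higher by 0.74 and 1.21, so members of this family went in different directions. Shank1, whose mRNA is found in dendrites, had 116, 121 and 129 CPM against 480, 541 and 506 CPM (-2.06, SE 0.12, adjusted p = 1e-05), and Shank3 was lower at -1.33. Homer2 was the lowest, with 6.38, 5.36 and 4.58 CPM against 95.9, 83.3 and 107 CPM (-4.12, SE 0.17, adjusted p = 5.1e-06). The 4 CaMKII subunits, the kinase that these scaffolds hold, were all higher. Camk2a, whose mRNA is transported into dendrites, had 464, 452 and 600 CPM against 280, 309 and 320 CPM (0.74, SE 0.15, adjusted p = 0.0037). Camk2b and Camk2d were higher by 0.84 and 1.15. Camk2g had the highest difference, 3.30, with 1917, 1865 and 237 CPM against 118 to 150 CPM, so library 3 was far below the others. By library size alone 1 CaMKII subunit was higher and 1 lower.

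Potassium channels and voltage-gated sodium and calcium channels had low occupancy. Of 81 potassium channel genes, 53 were lower and 7 higher (median -1.41), and of 38 voltage-gated sodium and calcium channel subunits, 21 were lower and 4 higher (median -0.93). No gene of either group had a shared peak, against 7.04% of all genes tested. Their median RNA levels in the 3 RNA-seq libraries were 8.09 to 8.71 CPM and 18.3 to 23.4 CPM. A shared peak was found in 1.18% of genes with 5 to 20 CPM of RNA and in 7.10% of those with 20 to 50 CPM. Short accessory subunits were among the lowest: Cacng7, a calcium channel gamma subunit that also escorts AMPA receptors, had 3.08, 3.24 and 3.50 CPM against 74.9, 69.9 and 68.0 CPM (-4.45, SE 0.12, adjusted p = 2.7e-06), and Cacng4 had 7.31, 7.14 and 9.83 CPM against 123, 125 and 105 CPM (-3.87, SE 0.17, adjusted p = 5.2e-06). The groups were more than 10-fold apart for both, and their coding sequences are unique. The pore-forming Cacna1c and Scn8a were lower at -1.98 and -1.25, while Scn2a did not pass the test (-0.48, adjusted p = 0.2) except without library 3 (-0.96, adjusted p = 0.00052). Kcnab2, a cytosolic beta subunit whose gene body overlaps another gene, was the most abundant potassium channel gene in the pellet, with 1945, 1713 and 2869 CPM against 59.5 to 72.1 CPM (5.01). The lowest, Kcnj14, had no count in any pellet library and 0.694 to 0.748 CPM of RNA, which makes it at least 7.28-fold lower (3 counts over the group as the floor). Scn4a, the sodium channel of skeletal muscle, had 1283, 1276 and 0.269 CPM in the pellet and at most 0.0297 CPM of RNA (14.98), and without library 3, which had almost none, it was 15.57.

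Glutamate receptor subunits were not uniform. Of 11 AMPA and NMDA receptor genes, 1 was higher and 3 lower (median -0.42; by library size alone none and 8), and their median relative to all genes, -0.31, came to -0.60 without pellet library 3 and to -0.11 without pellet library 2. Grin1, the obligatory NMDA receptor subunit, had 37.1, 34.1 and 88.9 CPM against 16.6, 17.1 and 18.7 CPM (1.61, SE 0.36, adjusted p = 0.0053). Gria2, the most abundant AMPA receptor subunit in the pellet, had 47.1, 36.4 and 109 CPM against 45.6, 37.9 and 32.2 CPM, and the groups overlapped (0.73, adjusted p = 0.13). Gria2 was at 0.12 (adjusted p = 0.59) without library 3 and at 0.96 (adjusted p = 0.033) without library 2. Grin2a and Grin2b were lower at -2.21 and -1.39, with Grin2b at 41.2, 36.4 and 81.1 CPM against 170, 128 and 116 CPM. In each of these genes pellet library 3 was the highest of the pellet libraries.

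The same library stood apart for other groups of membrane and secreted proteins. Relative to the median of all genes, cadherins and protocadherins were at 0.00, -0.12 and 0.77 in pellet libraries 1, 2 and 3, collagens and laminins at -0.06, -0.19 and 0.68, GABA-A receptors at 0.30, -0.08 and 0.97, and axon guidance genes at -0.49, -0.59 and 0.06. AMPA and NMDA receptors were at -0.51, -0.53 and 0.33. Library 3 was thus the highest for each of these groups, and it was the lowest for ribosomal proteins (-2.42, -2.02 and -2.82) and histones (-2.15, -1.27 and -2.76). What set library 3 apart was not tested. With TMM scaling, against 65.3% of all genes called in either direction, there were 12 higher and 8 lower of 98 cadherins and protocadherins, 10 and 6 of 55 collagens and laminins, 5 and 4 of 17 GABA-A receptor subunits, and 5 and 20 of 70 axon guidance genes. By library size alone 8.78% of all genes were higher and 67.6% lower. There, 2 cadherins and protocadherins were higher and 64 lower, and 4 and 33 collagens and laminins. The counts were 1 and 9 for GABA-A receptor subunits, and 1 and 58 for axon guidance genes. Pcdh17, a protocadherin, was the most abundant and the highest of the first group, with 2900, 1481 and 865 CPM against 43.9 to 45.9 CPM (5.28, and 4.68 without library 1), and Cdh24 was its lowest member at -2.01. Efna2, an ephrin ligand, was the lowest axon guidance gene at -3.30. Sodium and calcium pumps were higher in 7 and lower in 1 of 16 (median 0.38; by library size alone 1 and 7), and their median relative to all genes, 0.48, came to 0.63 to 1.33 when libraries were left out, the highest without RNA-seq library 1. Ryanodine and IP3 receptors, the large calcium release channels, were higher in 3 of 6 and lower in none (median 0.74; by library size alone 1 and 2), with Itpr2 and Itpr1 at 1.75 and 1.47. Solute carriers, the largest membrane group, were higher in 54 and lower in 131 of 321 (median -0.47; by library size alone 14 and 231), and their median relative to all genes, -0.37, came to -0.63 without RNA-seq library 3 and to -0.55 without RNA-seq library 2. Slc25a4 was the most abundant of them, with 1410, 1432 and 1439 CPM against 446, 458 and 420 CPM (1.69, SE 0.12, adjusted p = 2.3e-05).

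**Figure D4:**
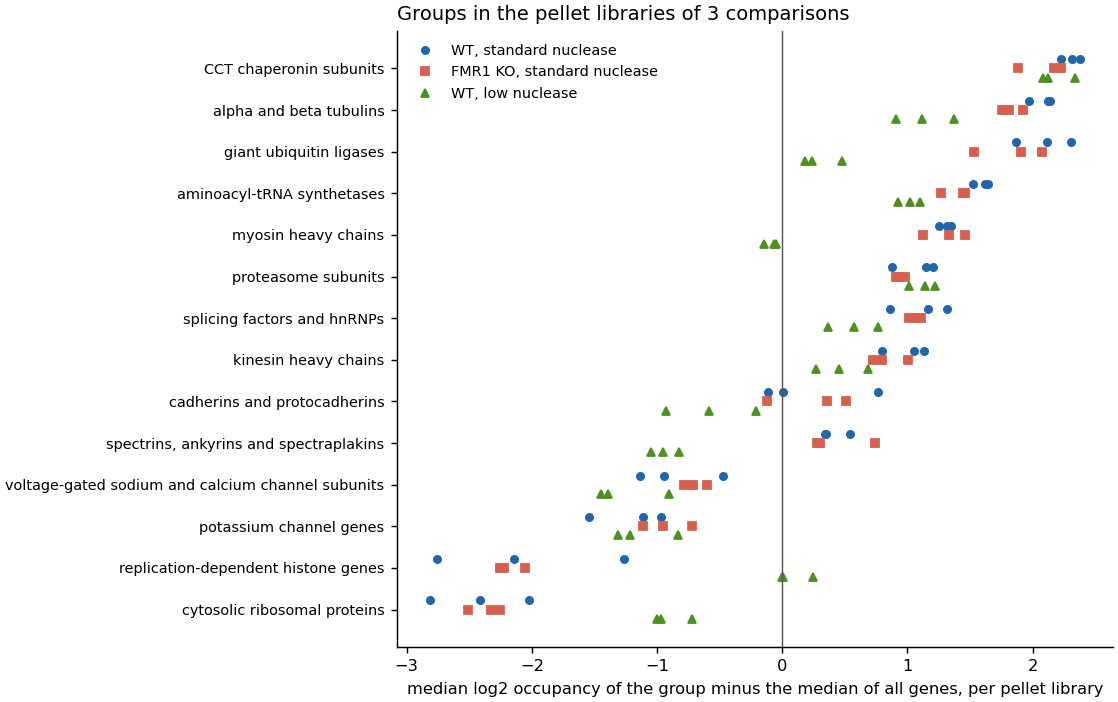
Median log2 ribosome occupancy of 14 gene groups minus the median of all genes, drawn for each of the 3 pellet libraries of WT standard nuclease (blue circles), FMR1 KO standard nuclease (red squares) and WT low nuclease (green triangles). The CCT chaperonin lies near 2 in each comparison, the ribosomal proteins are below -2 only in the standard nuclease libraries, and myosins and spectrins are above 0 in the blue and below 0 in the green points, which use all low nuclease RNA-seq libraries.

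Mitochondrial mRNAs showed the widest contrast by genome. Of the proteins encoded in mitochondrial DNA, which mitochondrial ribosomes translate, 11 were tested and all of these were lower, with a median of -8.98. Their summed level was 1.58, 3.57 and 2.69 CPM in the pellet against 1520, 956 and 873 CPM of RNA. For mt-Nd1, a complex I subunit with the largest fall past the threshold, the values were 0.143, 0.335 and 0.135 CPM against 427, 269 and 251 CPM (-10.62, SE 0.40, adjusted p = 4.7e-06). mt-Atp6 had no pellet count, which makes it at least 17.2-fold lower. Nuclear-encoded respiratory chain subunits, which cytosolic ribosomes make, were higher in 29 (30.5%) and lower in 40 (42.1%) of 95, against 31.1% and 34.2% of all genes, with a median of -0.27 (by library size alone 9 and 69). Atp5a1, the alpha subunit of ATP synthase, had 1938, 1969 and 2071 CPM against 504, 571 and 540 CPM (1.89, SE 0.13, adjusted p = 2e-05), and Atp5l, with no unique coding sequence, was the lowest at -8.35.

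Glycolytic enzymes were higher in 10 and lower in 4 of 18 (median 0.54; by library size alone 3 and 10). Hk1, hexokinase of neurons and the first step of the pathway, was the most abundant and the highest, with 863, 752 and 1009 CPM against 172, 254 and 220 CPM (2.02, SE 0.19, adjusted p = 7.5e-05). Gapdh, with no unique coding sequence, was the lowest, with 90.6, 86.9 and 79.0 CPM against 744, 810 and 691 CPM (-3.13). The 10 enzymes with largely unique sequence had a median of 1.41, with 8 higher and none lower.

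Nuclear proteins varied by class. Replication-dependent histones were lower in 48 of 63 and higher in none (median -2.14), and 53 of them have under 50% unique sequence; the other 10 had a median of -0.35. Chromatin remodelers and modifiers were higher in 56 and lower in 23 of 108 (median 0.44; by library size alone 14 and 67). Dnmt1, the maintenance DNA methyltransferase, was the highest with 1450, 1468 and 2272 CPM against 61.5 to 88.8 CPM (4.44), and Kmt5a the lowest at -2.92, while Hdac2 was higher by 1.92. Cell cycle and replication genes were higher in 20 and lower in 4 of 37 (median 0.91; by library size alone 4 and 15), with Rrm1 of ribonucleotide reductase the highest at 2.61 and Gins2 of the replicative helicase the lowest at -3.23. Zinc finger proteins were near all genes, with 131 higher and 137 lower of 432 and a median of -0.04. By library size alone 15 were higher and 335 lower, with a median of -1.20 against -1.25 for all genes. The transcription factors of brain development were also near all genes, with 11 higher and 10 lower of 42 and a median of 0.04 (by library size alone 1 and 32). Pou3f2, a single-exon factor of upper-layer neurons, stood out among them, with 13130, 19198 and 13645 CPM against 44.2, 50.8 and 56.2 CPM (8.25, SE 0.29, adjusted p = 3.8e-06) and 2 shared peaks. Lhx2 was the lowest at -1.62.

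The tissue label was checked on cell type markers. Neuron markers were present in both kinds of library and mostly higher in the pellet (9 of 15, with 1 lower, median 0.75; by library size alone 4 and 4), with Nefm of neurofilaments the highest at 1.84 and Slc17a7, the vesicular glutamate transporter of cortical neurons, the lowest at -1.60. Astrocyte markers were higher in 6 and lower in 1 of 12 (median 0.60; by library size alone 3 and 6), from Sparcl1 at 2.41 to S100b at -1.59. Oligodendrocyte markers had 2 higher and 3 lower of 12 (median 0.34; by library size alone none and 8). They ranged from Mog, a late myelin gene, at -5.05 (-5.90 without library 2) to 1.49 for the highest. Microglia markers had 3 higher and 4 lower of 12, near the shares of all genes (by library size alone 1 and 9). Endothelial and mural markers had 5 lower and none higher of 12 (median -0.62). Relative to all genes their median of -0.52 came to -0.20 without RNA-seq library 1, to -0.19 without pellet library 1 and to -0.02 with RNA counts scaled to their coding share, and in FMR1 KO it was 0.28. Erythroid markers, from blood left in the tissue, had 6 lower and none higher of 8 (median -3.13), with Hbb-bs at -5.34. Of these 8, 4 have under 50% unique coding sequence, and the other 4 had a median of -1.26. In bulk libraries a smaller share of a cell type in the pellet and fewer ribosomes on its mRNAs cannot be told apart.

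**Figure D5:**
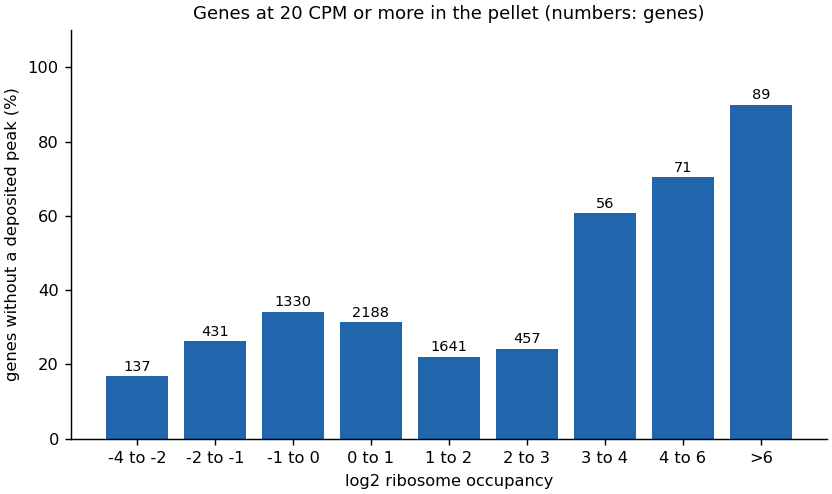
Share of genes without any deposited peak in the pellet libraries (bars, percent) by bin of log2 ribosome occupancy, among genes with 20 CPM or more in the pellet, with the number of genes above each bar, for bins of 50 genes or more. The share stays between 16.8% and 34.1% from a log2 value of -4 up to 3, and reaches 60.7%, 70.4% and 89.9% in the bins above it.

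The largest rises lay far above the medians of the groups described so far, and Scn4a of the sodium channels was among them. Of 270 genes above 4 on the log2 scale, 147 had under 1 CPM of RNA. Mroh6 had 19302, 19805 and 16858 CPM in the pellet and 0.0241, 0.0099 and 0.0319 CPM of RNA (19.63, SE 0.54). Hmx1, a homeobox gene of the eye and ear, had 10199, 7882 and 7641 CPM and at most 0.0198 CPM of RNA (19.07). Sall4, a stem cell factor, had 26119, 22900 and 16522 CPM and 0.117 to 0.158 CPM of RNA (17.24). All pellet libraries were far above the RNA-seq libraries for these genes, and the RNA was near the floor. Tmem247 had 2 RNA counts in all against 26582 in the pellet, a ratio of 243000 with a 95% exact interval of 67400 to 2010000 that covers counting error only. Scn4a and Sftpc (a lung surfactant protein) followed at 14.98 and 14.10, the latter at 14.79 without RNA-seq library 3. Ptprh, at 13.68, had 2.36, 36845 and 22694 CPM, so library 1 lacked what the others held, and it was 12.79 without library 2. Pck1 and Lcn11 had no RNA count, which makes them at least 2490-fold and 2630-fold higher. None of these genes had a deposited peak in any pellet library. Among genes with 20 CPM or more in the pellet, the share without any peak was 24.3% of 457 genes between 2 and 3 and 89.9% of 89 genes above 6, so this readout set the highest occupancies apart.

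Rises that also had shared peaks and at least 10 CPM of RNA were smaller, and were picked after their values were seen. Beside Pou3f2, Lars2 and Ubr4 they included Ipo5, a nuclear import receptor (3.79), Capn2, a calcium-dependent protease (3.55), and Atrx, a chromatin remodeler (2.96). Slc7a11, the cystine transporter, had 178, 140 and 131 CPM against 15.4, 10.9 and 12.9 CPM (3.52) with 4 shared peaks. Pellet and RNA-seq libraries did not overlap for Slc7a11.

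Among genes called lower, with libraries that do not overlap and at least 10 CPM of RNA, the 10 largest falls were mitochondrially encoded or had under 50% unique coding sequence in 8 of 10 cases: mt-Nd1, mt-Nd4, mt-Nd2, mt-Co1, Rtl8a, Rtl8b, Hist1h4n and Cdr1. Rtl8a and Rtl8b, near-identical copies of a retrotransposon-derived gene, had 1 pellet count each against 26145 and 25568 of RNA, which makes Rtl8a 1430-fold lower (95% exact interval 256 to 56400, counting error only) and Rtl8b 1400-fold lower (250 to 55100). Hist1h4n and Vsig2 also rested on 1 pellet count each and were 782-fold (140 to 30900) and 482-fold (86.5 to 19100) lower. mt-Nd4, with 3 pellet counts, was 1020-fold lower (350 to 4960). mt-Co1 was at -8.77 on the log2 scale and at -9.48 without library 2. Cdr1, at -9.08, is the locus of an abundant circular RNA of neurons. The others were Vsig2 and Ccnb1ip1, the most counted gene of the RNA-seq libraries, with 8.88, 19.4 and 6.87 CPM in the pellet against 19841, 8327 and 7470 CPM (-9.99, SE 0.73, and -10.59 without library 2 or -9.39 without RNA-seq library 1). Among genes with at least 95% unique sequence and no overlap with another gene, a set picked after its values were seen, the falls included Vegfb, a growth factor of vessels, with 2.01, 2.12 and 1.48 CPM against 95.7, 64.4 and 53.5 CPM (-5.23). Rasl10b, a neuronal small GTPase, had 5.45, 6.47 and 5.92 CPM against 180, 152 and 163 CPM (-4.80). The inhibin subunit Inha was at -5.02. All pellet libraries were below all RNA-seq libraries for these genes.

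Libraries that share no sample with this comparison gave a similar ordering under the same nuclease. In FMR1 KO mice, which lack FMRP, 5143 (31.8%) genes were higher and 5696 (35.2%) lower in the same test, and occupancy correlated with that of WT at a Spearman's rho of 0.909 across 16064 genes. Relative to all genes, the medians were 2.05 for CCT, 1.77 for giant ligases, 1.69 for tubulins, 1.32 for tRNA synthetases, -0.94 for potassium channels and -2.37 for ribosomal proteins. Some groups lay on the other side of all genes than in WT, with AMPA and NMDA receptors at 0.18 (WT -0.31), GABA-A receptors at -0.03 (0.45), brain transcription factors at -0.15 (0.15) and endothelial markers at 0.28 (-0.52). In the WT low nuclease preparation the rho was 0.678 across 15473 genes, and 0.713 across 15812 genes without RNA-seq replicate 2, in which 10 genes held 81.5% of the counts. Without that replicate 4677 genes (29.2%) were higher and 4764 (29.8%) lower. With all low nuclease libraries CCT was at 2.23, tubulins at 1.12, tRNA synthetases at 0.98, potassium channels at -1.05, giant ligases at 0.29 and ribosomal proteins at -0.89. Without RNA-seq replicate 2 these medians were 2.29, 1.12, 1.16, -1.09, 0.58 and -0.98. Relative to all genes, medians ran from -1.21 to 0.91 over the bins of coding length in these WT libraries, from -1.25 to 0.98 in FMR1 KO, and from -0.47 through 0.19 to -0.15 in WT low nuclease. Without low nuclease RNA-seq replicate 2 the last ran from -0.56 through 0.24 to 0.07, so the longest bin changed sign. The difference between preparations was not tested.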

How the data were processed

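RPFs of the pellet and whole-brain RNA were sequenced in 3 WT libraries each. The authors trimmed reads with cutadapt 2.10, filtered out rRNA and further non-coding RNAs by Bowtie2 2.3.5, aligned with STAR 2.7.8a to GRCm38, marked duplicates with Picard, used SAMtools 1.19.2 and counted reads per gene with featureCounts 2.2.0 (versions per the submitters' processing notes and methods). The deposited table holds these raw counts, with no scaling. For genes nested within another gene's body the host's count was never below the nested gene's, on either strand (genes of 3000 counts or more), so counts appear to cover gene bodies without strand, and overlapping genes may share reads. The authors' peak lists give peak height, a coverage signal at local maxima, called per library and not scaled between libraries. Whether their stated minimum was applied to the deposited lists is not given in the sources used here, nor is the RNA-seq library preparation.

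Here genes were named from a GRCm38 annotation (GENCODE M21, 20 identifiers unmatched), 46 non-coding genes and Cdk8 were dropped, and 16180 of 16567 genes passed edgeR's expression filter. Counts were TMM-scaled and tested with edgeR 4.0.16 (limma 3.58.1, R 4.3.3; glmQLFit and glmQLFTest, Benjamini-Hochberg 0.05), with the 6 libraries only and no covariate, after a test on simulated data. The SE is the log2 difference over the square root of F, and log2 CPM used a prior count of 2. Sequences are from the GRCm38 genome, and 30-base stretches of coding sequence, 1 every 5 bases, were counted as unique when found once in it (numpy 2.4.6, pandas 2.3.3, numba 0.67.0, scipy 1.17.1, Python 3.11.15). The members of this comparison and the 50 gene lists were chosen with earlier results of these data known. Named genes were those the study names, the 10 largest rises and falls among genes called, not overlapping and at 10 CPM or more, and in each list the most abundant member in the pellet and the highest and lowest by occupancy. Other named genes were chosen after their values were seen, and a few genes that the rule picks are not reported here. The labels only number the replicates, and the study speaks of them as biological preparations. Alternatives covered scaling, filters, DESeq2 1.42.0, left-out libraries, unique or non-overlapping genes, and a replicate block.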

Additional observations from a re-analysis of the deposited data

Results flagged for a closer look

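Cdk8 held a median of 45.6% of all counts in the pellet libraries and was left out of the comparisons in the report. An alternative setting that kept it gave 5031 higher and 5538 lower genes.

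Several gene groups lay on one side of the median of all genes in every WT standard pellet library and on the other side in every WT low nuclease pellet library. The difference between preparations was not tested. Each value is a group's median log2 occupancy minus that of all genes. Myosin heavy chains were at 1.35, 1.25 and 1.32 in the standard libraries and had a median of -0.07 over the 3 low nuclease libraries, which turned to 0.38, 0.13 and 0.11 when low nuclease RNA-seq replicate 2, where 10 genes hold most counts, was left out. Spectrins, ankyrins and spectraplakins were at 0.35, 0.34 and 0.54 against a median of -0.95, and P-type sodium and calcium pumps at 0.61, 0.35 and 1.11 against -1.01. Both groups stayed below 0 without that RNA-seq library. Presynaptic active zone scaffolds were at 0.61, 0.35 and 0.70 against -0.31, and came to -0.13, -0.04 and -0.13 without that library. Ryanodine and IP3 receptors were at 0.79, 0.61 and 1.22 against -0.42, and came to -0.23, -0.25 and 0.04 without that library. Elongation factors were at 0.34, 0.23 and 0.03 against -0.16, and came to 0.08, -0.06 and -0.04 without it. The FMRP targets that the study took from Maurin et al. were at 0.52, 0.32 and 0.69 against -0.24, and those from Darnell et al. at 0.37, 0.28 and 0.53 against -0.22. Without low nuclease RNA-seq replicate 2 the lists were nearer to all genes, at -0.10, -0.02 and -0.09 and at -0.20, -0.05 and -0.15.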

How the results depend on the processing

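The counts of 5031 higher and 5540 lower genes depended on scaling. Library size alone gave 1421 and 10938, and scaling RNA counts to their coding share gave 2888 and 9182. Among genes with 10 CPM or more of RNA, fewer were tested, and 3652 were lower. The other settings stayed within 1.5 times of these counts, leaving out 1 library gave 4418 to 5029 higher and 4876 to 5701 lower, and leaving out a pellet and an RNA-seq library of the same number together gave as few as 4078 and 4325. With the replicate block 4665 genes were higher and 5210 lower. Same-numbered pellet and RNA-seq libraries deviated together by only 0.033, 0.018 and 0.039 (correlation over genes), so the numbers were not taken as pairs, and pellet 1 correlated best with RNA-seq 2 (0.053).

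Over 23 settings, 1068 values of group medians relative to all genes moved by less than the spread between libraries, and 81 moved by more. That spread combines the pellet and the RNA-seq libraries. Group medians carry no call, and 12 of them changed sign in at least 1 setting: GABA-A receptors (0.45) came to -0.45 with RNA counts scaled to their coding share, axon guidance genes (-0.33) to 0.06 and respiratory chain subunits (-0.17) to 0.01. Collagens and laminins (0.19) came to -0.82 and oligodendrocyte markers (0.44) to -0.17 among genes with 10 CPM or more of RNA. Elongation factors (0.18) came to -0.77, postsynaptic scaffolds (0.04) to -0.26 and microglia markers (0.01) to -0.43 without overlapping genes. Cadherins (0.28), brain transcription factors (0.15), zinc finger proteins (0.07) and mitochondrial ribosomal proteins (-0.04) also changed sign. Leaving out pellet library 3 turned the signs of cadherins and of oligodendrocyte markers (to -0.15). Of the values of named genes relative to all genes, 3686 kept their side of the threshold with no change of sign in a call, 85 lost the call, 17 gained it and 5 changed sign. Those of genes all came from scaling RNA counts to their coding share, which put Fars2 at 0.0820, Psmb5 at 0.28, Dst at 0.0652, Macf1 at 0.50 and Ddx6 at -1.11; the cause was not tested. Ribosomal proteins ranged from -2.80 to -0.34, the latter with largely unique genes only. Depth limits the genes with few counts in the pellet, whose libraries held 11914381 counts or more.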

Other observations

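Lists that the study itself used were also measured, and since it chose them for this question they are not independent evidence. Of 186 mRNAs that Shah et al. listed as keeping their ribosomes during run-off, 130 were higher and 11 lower in the WT pellet, with a median log2 occupancy of 1.23. By library size alone 55 were higher and 59 lower, and in the WT low nuclease pellet their median relative to all genes was 0.01 (0.19 without RNA-seq replicate 2). Of the FMRP targets, 123 of 262 (Maurin et al.) were higher and 70 lower, with a median of 0.41, and 341 of 751 (Darnell et al.) were higher and 235 lower, with a median of 0.28. By library size alone 48 were higher and 157 lower in the first list, and 100 and 468 in the second. Over all genes 8.78% were then higher and 67.6% lower. The list medians of -0.75 and -0.88 stayed above the -1.25 of all genes. Against genes of like coding length the medians with TMM scaling were -0.05 and -0.12. With TMM scaling the median over all genes tested was -0.10, with 31.1% higher and 34.2% lower.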
